A study of Homo sapiens with 6 samples.

Results

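The S100 genes encode small calcium-binding proteins, and 10 of them were described here in DU145 cells: S100A2, S100A4, S100A6, S100A8, S100A9, S100A10, S100A11, S100A14, S100A16 and S100P. They were selected on measured FPKM values from the 27381 genes of the deposited table, with the levels and differences given here already known, so these are given as a description and support nothing by themselves. DU145 is a human metastatic castration-resistant prostate cancer (CRPC) line. In what follows, CD24 KO and RCC2 KO stand for the libraries so labelled. All 3 conditions carried CRISPR/Cas9 delivered from a GFP plasmid: scrambled sgRNA (Scr), CD24 sgRNA (CD24 KO) or RCC2 sgRNA (RCC2 KO), with GFP-sorted cells expanded as clones. The labels give 2 libraries to each condition but do not say from which clone each came, and the table holds 1 FPKM value per gene and condition.

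FPKM divides the fragments of a gene by its transcript length and by the mapped total, so levels of different genes can be set side by side. The values of a condition came combined, except that the RCC2 KO column has a name that fits its first library alone as well as both. No SD, interval or test across libraries could therefore be given, depth is unknown, and no difference below has a replicate check. In bulk RNA, fewer cells expressing a gene and less RNA per cell cannot be told apart. Neither targeted RNA was lower than Scr under its own label. Across Scr, CD24 KO and RCC2 KO in turn, CD24 RNA read 93.2, 309 and 214 FPKM and RCC2 RNA 37.8, 14.2 and 41.8 FPKM. RCC2 RNA in RCC2 KO was thus only 1.10-fold above Scr. The table gives CD24 a position on chromosome Y that it shares with TTTY14, so its values may not reflect that gene alone. The study describes checks of its clones on DNA and protein, which were not analysed here. Each direction below rests on the labels as given. All 8 epithelial markers listed reached at least 1 FPKM in every column, with KRT8 at 336 FPKM in Scr.

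S100 proteins fold around EF hands, motifs whose loops hold calcium in most members, and most work as dimers. In most members calcium exposes a surface that binds partners such as annexins, myosin or p53. Some members are also released from cells and act on receptors such as AGER (RAGE) and TLR4. S100A8 and S100A9 pair as calprotectin, which is abundant in neutrophils and monocytes and can be induced in epithelia. S100A2 is known from basal epithelium, S100A4 from motile and mesenchymal cells, and S100A10 as the partner of annexin A2 at the plasma membrane.

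Of the 10 genes, 9 lie in the S100 cluster on chromosome 1 and S100P lies on chromosome 4. The upstream sequences of S100A9 and S100A14, at least 2-fold higher in the libraries labelled CD24 KO, of S100A2 and S100A4, at least 2-fold lower there, and of S100A8, the calprotectin partner of S100A9, are shown for the 200 bases before a start site of each gene (RefSeq, GRCh38.p14). All 10 genes matched the RefSeq table, with 14 start sites, and S100A2 is shown at the first of its 2 starts and S100A8 at the second of its 3. Each runs 5′ to 3′ on the strand of its gene, the plus strand for S100A9 and the minus strand for the others. Capitals mark matches on either strand to 7 short motifs, which are spelled out after the sequences.
S100A9, chr1:153357654-153357853: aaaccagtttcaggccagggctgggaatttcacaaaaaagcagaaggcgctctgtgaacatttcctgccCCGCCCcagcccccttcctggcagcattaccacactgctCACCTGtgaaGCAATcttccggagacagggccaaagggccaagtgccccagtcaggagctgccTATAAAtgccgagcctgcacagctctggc
S100A8, chr1:153391074-153391273: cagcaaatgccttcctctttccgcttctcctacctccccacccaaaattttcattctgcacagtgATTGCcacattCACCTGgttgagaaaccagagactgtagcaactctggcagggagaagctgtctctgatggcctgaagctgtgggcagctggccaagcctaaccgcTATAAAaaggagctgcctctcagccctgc
S100A14, chr1:153616326-153616525: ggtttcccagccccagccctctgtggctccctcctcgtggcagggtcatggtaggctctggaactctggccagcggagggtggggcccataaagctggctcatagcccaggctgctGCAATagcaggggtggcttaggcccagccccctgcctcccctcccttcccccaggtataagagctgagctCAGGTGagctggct
S100A2, chr1:153565845-153566044: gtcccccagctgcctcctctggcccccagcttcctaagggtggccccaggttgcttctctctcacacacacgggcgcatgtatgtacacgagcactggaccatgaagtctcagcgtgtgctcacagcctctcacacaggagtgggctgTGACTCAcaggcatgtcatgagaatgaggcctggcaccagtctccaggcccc
S100A4, chr1:153545807-153546006: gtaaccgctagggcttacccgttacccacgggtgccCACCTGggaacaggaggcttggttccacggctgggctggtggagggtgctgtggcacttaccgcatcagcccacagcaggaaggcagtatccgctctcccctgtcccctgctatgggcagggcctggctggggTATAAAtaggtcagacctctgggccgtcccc

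S100A9 and S100A8 both held a TATA box from base 29 to base 24 before the start shown, a C/EBP core and an E-box. S100A9 also held a GC box from base 131 to base 126. The matches of S100A8 depended on the start. Its start 1 held C/EBP cores and an E-box but no TATA box. Its start 3 held only a TATA box, from base 126 to base 121. S100A4 held a TATA box from base 31 to base 26 and an E-box from base 164 to base 159. S100A14 held a C/EBP core and an E-box. S100A2 held a single AP-1 site from base 52 to base 46 before the start shown, and its start 2 held only an E-box. The share of 35116 RefSeq start regions of this length with a match gives the background. The TATA box was searched as TATAAA and found in 8.59% of them. For the C/EBP core the letters GCAAT were in 17.2%. The AP-1 site, written TGANTCA, was in 5.38%. The GC box, with GGGCGG as its letters, was in 40.1%. A TCF/LEF core was taken as CTTTGAN and was in 8.76%. For STAT, the site TTCNNNGAA was in 5.09%. The E-box, searched as CACCTG, was in 14.2%. No TCF/LEF or STAT letters were found in the 5 windows. These matches describe letters and were not tested as binding sites.

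The most abundant S100 RNAs in DU145 cells were S100A11, S100A6 and S100A10. S100A11, which binds annexin A1, was at 975 FPKM in Scr, against 623 in CD24 KO and 989 in RCC2 KO. S100A6 (calcyclin) was at 590 FPKM in Scr, against 481 in CD24 KO and 810 in RCC2 KO. S100A10 (p11) was at 523 FPKM in Scr, against 265 in CD24 KO and 679 in RCC2 KO. All 3 had their lowest value in the libraries labelled CD24 KO and their highest in those labelled RCC2 KO. In Scr they ranked 32nd, 66th and 78th by level among the 12822 genes that reached 1 FPKM in any column. S100A16, a broadly expressed member, followed the same order at 154, 116 and 202 FPKM.

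The summed FPKM of the 10 genes was 2314 in Scr, 1557 in CD24 KO and 2752 in RCC2 KO, or 0.513%, 0.400%, and 0.616% of the column sums. S100A6, S100A10 and S100A11 made up 90.3%, 88.0% and 90.0% of these sums. The sum thus mainly reports these 3 genes and says little of the others.

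The members of intermediate level separated the conditions more. S100A4 (metastasin, a partner of nonmuscle myosin heavy chain) was at 41.97 FPKM in Scr, against 12.8 in CD24 KO and 31.4 in RCC2 KO. S100A2 was at 23.1 FPKM in Scr, against 3.91 in CD24 KO and 35.1 in RCC2 KO. Both were lowest in the libraries labelled CD24 KO, and S100A2 alone of the pair was highest in RCC2 KO. The table gives S100A4 the same position as S100A3 and LOC101928034, between which the authors' estimation could have divided fragments.

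S100A9 went the other way. It was at 4.55 FPKM in Scr, against 50.7 in CD24 KO and 3.56 in RCC2 KO, so that its level ranked 9044th in Scr and 1522nd in CD24 KO. S100A14, an epithelial member, was at 1.30, 3.94 and 1.42 FPKM in the same order. S100A8 stayed near 0, listed at 0 in Scr and at 0.161 and 0.146 FPKM in CD24 KO and RCC2 KO, and it shares its position with S100A7A. The higher S100A9 RNA in CD24 KO had no counterpart in RNA of its calprotectin partner. S100P, which binds ezrin, was listed at 0 in all 3 columns. A 0 in this table is given as a listing and not as absence of the RNA.

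**Figure D1:**
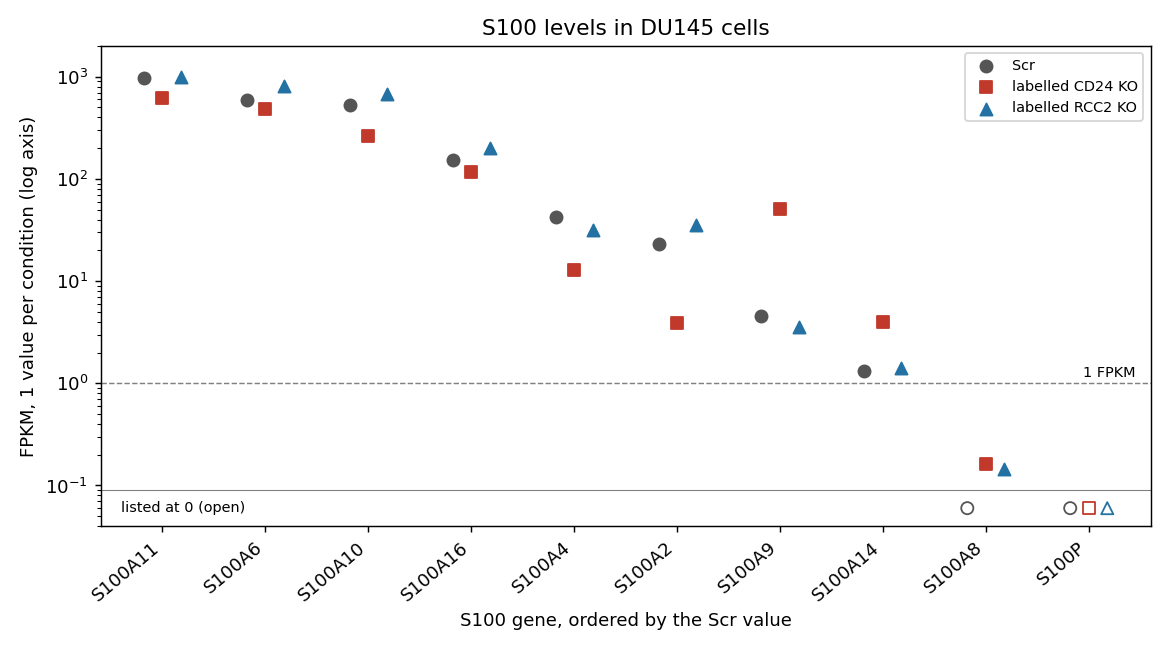
FPKM (log axis, 1 value per condition) of the 10 S100 genes, ordered by the Scr value, with circles for Scr, squares for the libraries labelled CD24 KO and triangles for those labelled RCC2 KO. S100A9 is the gene with the widest gap, at 50.7 FPKM in CD24 KO against 4.55 FPKM in Scr, and open symbols under the grey line are listings of 0.

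The order of levels was S100A11, S100A6, S100A10, S100A16, S100A4, S100A2, S100A9 and S100A14 in Scr. In CD24 KO the first 4 genes kept that order, S100A9 came next, ahead of S100A4, and S100A14 and S100A2 were neighbours at 3.94 and 3.91 FPKM. In RCC2 KO only S100A2 and S100A4 exchanged places with respect to Scr, at 35.1 and 31.4 FPKM. No spread between libraries is available to say which neighbours in these orders differ.

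The libraries labelled CD24 KO were first compared with Scr, which addresses how RNA levels differed between libraries labelled as targeted at CD24 and the control. Differences are given as differences of log2(FPKM + 1), a scale that understates the change of low genes, and a gene at least 2-fold different on it was called, with no test. S100A8 and S100P did not reach 1 FPKM in any column and were not compared. The remaining 8 genes had at least 1 FPKM in every column. Of these, 2 were called higher and 2 lower, against 2.67% and 3.03% of all 12822 genes compared, or 5.69% in either direction. S100A9 was 11.1-fold higher by its FPKM values, a log2 difference of 3.22, and 14 of all genes compared had a larger increase. S100A14 was 3.02-fold higher, with a log2 difference of 1.10, but was not called with a pseudocount of 5, at 0.50, which leaves 1 gene higher. S100A2 was 5.92-fold lower, with a log2 difference of -2.30, and 24 genes had a larger decrease. S100A4 was 3.27-fold lower, with a log2 difference of -1.64, and 60 genes had a larger decrease.

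S100A10 lay just outside the 2-fold minimum, at a log2 difference of -0.98, and S100A14 was the member just inside it. S100A11, S100A16 and S100A6 had log2 differences of -0.65, -0.41 and -0.30. With a minimum of 1.5-fold, 6 of the 8 genes were called, S100A10 and S100A11 being added, where 21.1% of all genes were called. The median of the 8 genes was -0.53, with 6 genes lower and 2 higher, beside a median of -0.03 over all genes. The FPKM values of CD24 KO sum to less than those of the other columns, and with columns rescaled to the same sum every difference in CD24 KO is 0.22 higher on the log2 scale, apart from the pseudocount. The same 4 members were then called. Rescaling takes the median of the 8 genes to -0.31 and that of all genes to 0.15.

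The libraries labelled RCC2 KO differed less from Scr. In this comparison, which shares its Scr values with the one above, none of the 8 genes was at least 2-fold different, where 0.406% of all genes were higher, 0.796% lower and 1.20% different in either direction, and none reached 1.5-fold, where 5.27% of all genes did. S100A2 had the largest difference, 0.58 on the log2 scale, and 188 genes had a larger increase. Its FPKM values were 1.52-fold apart, which the pseudocount takes under 1.5-fold. S100A6, S100A16 and S100A10 were at 0.46, 0.39 and 0.38. S100A14 and S100A11 were at 0.07 and 0.02, and S100A4 and S100A9 at -0.41 and -0.29. The median of the 8 genes was 0.22, with 6 higher and 2 lower, beside -0.004 over all genes. The 5th to 95th percentile of all genes ran from -0.52 to 0.38, a range that S100A2, S100A6 and S100A16 exceeded.

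**Figure D2:**
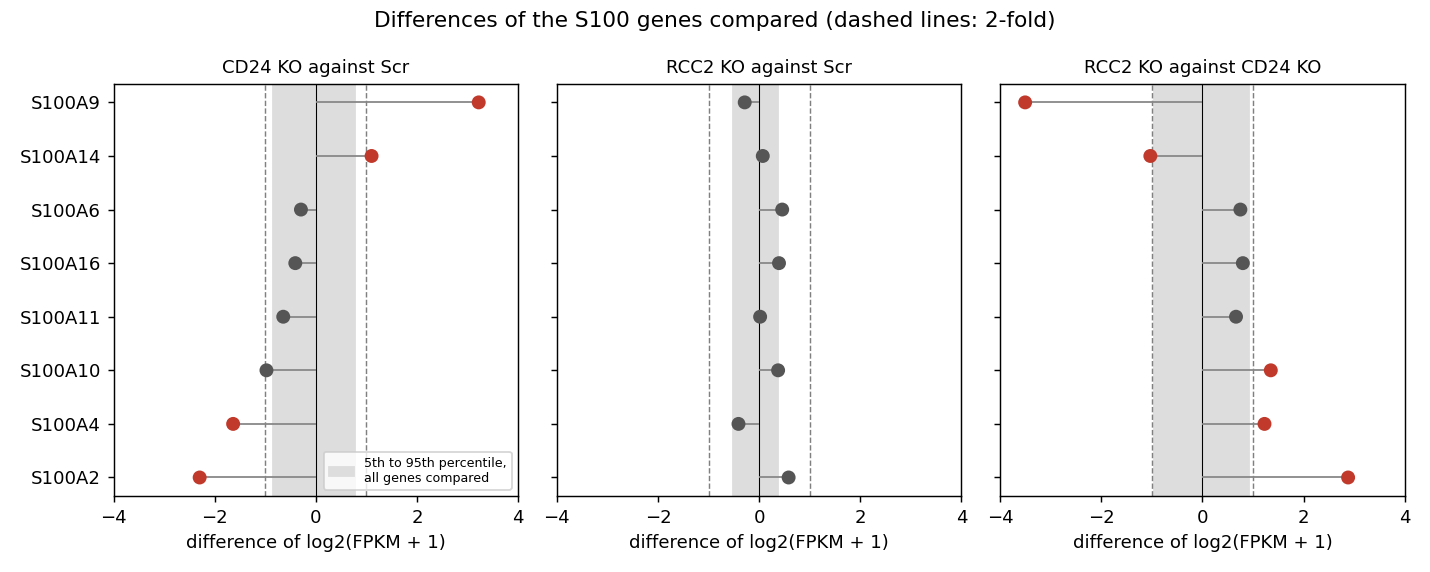
Difference of log2(FPKM + 1) for the 8 S100 genes compared, in CD24 KO against Scr, RCC2 KO against Scr and RCC2 KO against CD24 KO. Red points lie at least 2-fold from 0 (dashed lines), and the grey band spans the 5th to 95th percentile of all 12822 genes compared. S100A9 lies at 3.22 in the first panel and at -3.50 in the third, with S100A2 on the opposite side in each.

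The libraries under both knockout labels were then compared with each other, so that the shared Scr values do not enter. The CD24 KO and RCC2 KO values are those used above. Each log2 difference is thus the RCC2 KO difference less the CD24 KO difference, and not a separate observation. In RCC2 KO, 3 of the 8 genes were at least 2-fold higher and 2 lower than in CD24 KO, where 4.02% of all genes were higher, 4.30% lower and 8.31% different in either direction. S100A2 was 8.99-fold higher in RCC2 KO, a log2 difference of 2.88, and 16 genes had a larger increase. S100A10 and S100A4 were 2.56-fold and 2.45-fold higher, with log2 differences of 1.35 and 1.23. S100A9 was 14.3-fold lower in RCC2 KO, a log2 difference of -3.50, and 12 genes had a larger decrease. S100A14 was 2.77-fold lower, at -1.03, and was not called with a pseudocount of 5, at -0.48, or with quantile normalization, at -0.86, either of which leaves 1 gene lower. The other members, S100A16, S100A6 and S100A11, were higher in RCC2 KO by 0.80, 0.75 and 0.66. All 8 genes were at least 1.5-fold different, where 27.9% of all genes were. Their median was 0.78, beside 0.02 over all genes.

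By position, the S100 genes did not share one direction. The table, which names no build and whose positions overlap those of GRCh38 (GENCODE 29) for 3 of 21 S100 genes and were therefore read as hg19, places 17 S100 genes from 151955386 to 153618782 on chromosome 1. S100A10 and S100A11 stand apart from the other 15 by 1321 kb that hold the epidermal differentiation genes. S100A9, from 153330330 to 153333503, was higher in CD24 KO, and S100A2, from 153533585 to 153538306, was lower. S100A14, from 153586732 to 153588808, and its neighbour S100A16, from 153579359 to 153585644, went in opposite directions, at 1.10 and -0.41. S100A4, from 153516095 to 153524245, and S100A6, from 153507076 to 153508717, were both lower, at -1.64 and -0.30. Of the 11 S100 genes on chromosome 1 that were compared, 3 were higher and 8 lower in CD24 KO, and 8 were higher and 3 lower in RCC2 KO. These 11 include the 8 members compared, which were chosen with their values known. The median over all genes was -0.03 in CD24 KO and -0.004 in RCC2 KO. With quantile normalization S100A6 in CD24 KO and S100A11 in RCC2 KO had the opposite sign.

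**Figure D3:**
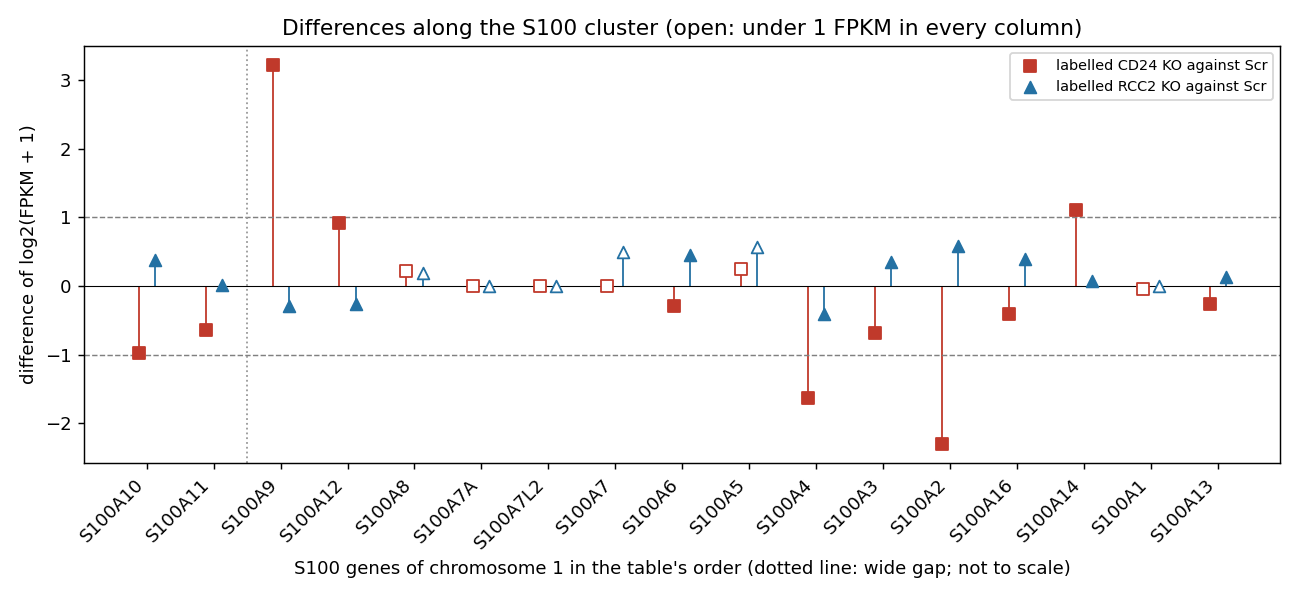
Difference of log2(FPKM + 1) against Scr for the 17 S100 genes of chromosome 1, in the order of the table and not to scale, with squares for CD24 KO and triangles for RCC2 KO. Open symbols had under 1 FPKM in every column. The largest differences in CD24 KO, 3.22 for S100A9 and -2.30 for S100A2, are separated by 9 genes, among them S100A4 at -1.64 and S100A12 at 0.91.

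Between the outer S100 genes lie 53 further genes, of which 41 were listed at 0 in every column and 4 were compared. None of these 4 genes, CHTOP, FLG-AS1, IVL and TCHH, was called in any comparison on the log2(FPKM + 1) scale, and their median in CD24 KO was 0.48. By FPKM alone some differed by more than 2-fold, since the pseudocount weighs on low values. FLG-AS1, an antisense RNA, was at 1.97 FPKM in Scr, against 4.46 in CD24 KO and 2.27 in RCC2 KO, a log2 difference of 0.88 in CD24 KO. IVL (involucrin), a cornified envelope protein, was at 0.135 FPKM in Scr, against 1.18 in CD24 KO and 0.105 in RCC2 KO, which is 8.78-fold higher in CD24 KO than in Scr by FPKM and 0.94 on the log2 scale. Within 1 Mb on either side, 51 of 75 genes were compared, with a median log2 difference from Scr of -0.11 (CD24 KO) or -0.01 (RCC2 KO). There, TDRKH-AS1 was called in CD24 KO, at 5.58 FPKM in Scr and 16.8 FPKM in CD24 KO. Set against CD24 KO, the RCC2 KO values of TDRKH-AS1 and CREB3L4 were lower, at -2.11 and -1.25 on the log2 scale. These were 1 and 2 of the 51 genes, where 5.69% and 8.31% of all genes compared were called.

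Of the 11 remaining S100 genes, 3 were compared. S100A13, which takes part in release of FGF1, was at 115 FPKM in Scr, against 95.4 in CD24 KO and 126 in RCC2 KO. Its position is shared with S100A1 and CHTOP. S100A3, which shares the position of S100A4, was at 10.2, 5.94 and 13.2 FPKM, and its log2 differences in the knockouts were -0.68 and 0.35, CD24 KO first. S100A12, the neighbour of S100A9 and like it a myeloid member, was at 0.195 FPKM in Scr, against 1.25 in CD24 KO and a listing of 0 in RCC2 KO. No gene of this group was called against Scr, where 5.69% (CD24 KO) and 1.20% (RCC2 KO) of all genes were. S100A3 was called higher and S100A12 lower in RCC2 KO than in CD24 KO, where 8.31% of all genes were called. With 3 genes compared, these calls say little of the group. S100A7A, S100A7L2, S100B, S100G and S100Z were listed at 0 in every column. Of the 7 S100-fused proteins, which join an S100 domain to a structural repeat, only TCHH (trichohyalin) was compared, at 0.980 FPKM in Scr and 1.10 FPKM in CD24 KO.

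Binding partners and receptors of the S100 proteins made up a list of 18 genes, of which 15 were compared. EZR alone was called, lower in CD24 KO, and 1 of 15 is near the 5.69% of all genes called there. EZR (ezrin, which links actin to the membrane) was at 154 FPKM in Scr, against 71.8 in CD24 KO and 159 in RCC2 KO, a log2 difference of -1.09 in CD24 KO. The median of the 15 genes was -0.32 in CD24 KO, with 11 lower and 4 higher, and 0.03 in RCC2 KO. ANXA2, the partner of S100A10, was at 145, 153 and 154 FPKM in Scr, CD24 KO and RCC2 KO, so that the ratio of S100A10 to ANXA2 was 3.60, 1.73 and 4.405. The ratio of S100A11 to ANXA1 was 2.72, 2.22 and 2.83. The ratio of S100A6 to its partner CACYBP was 21.7, 22.3 and 22.8. The ratio of S100A4 to MYH9 was 0.306, 0.0754 and 0.206. Of the receptors, TLR4 was listed at 0 in all columns and AGER at 0.12 FPKM in RCC2 KO and at 0 elsewhere.

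Of 17 other EF-hand genes, 15 were compared, and none was called in any comparison. With 5.69%, 1.20% and 8.31% of all genes called in the 3 comparisons, few calls among 15 genes say little of the list. The most abundant was CAPNS1, the small calpain subunit, at 371, 334 and 338 FPKM in Scr, CD24 KO and RCC2 KO. Their median log2 difference was -0.13 in CD24 KO and -0.07 in RCC2 KO.

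**Figure D4:**
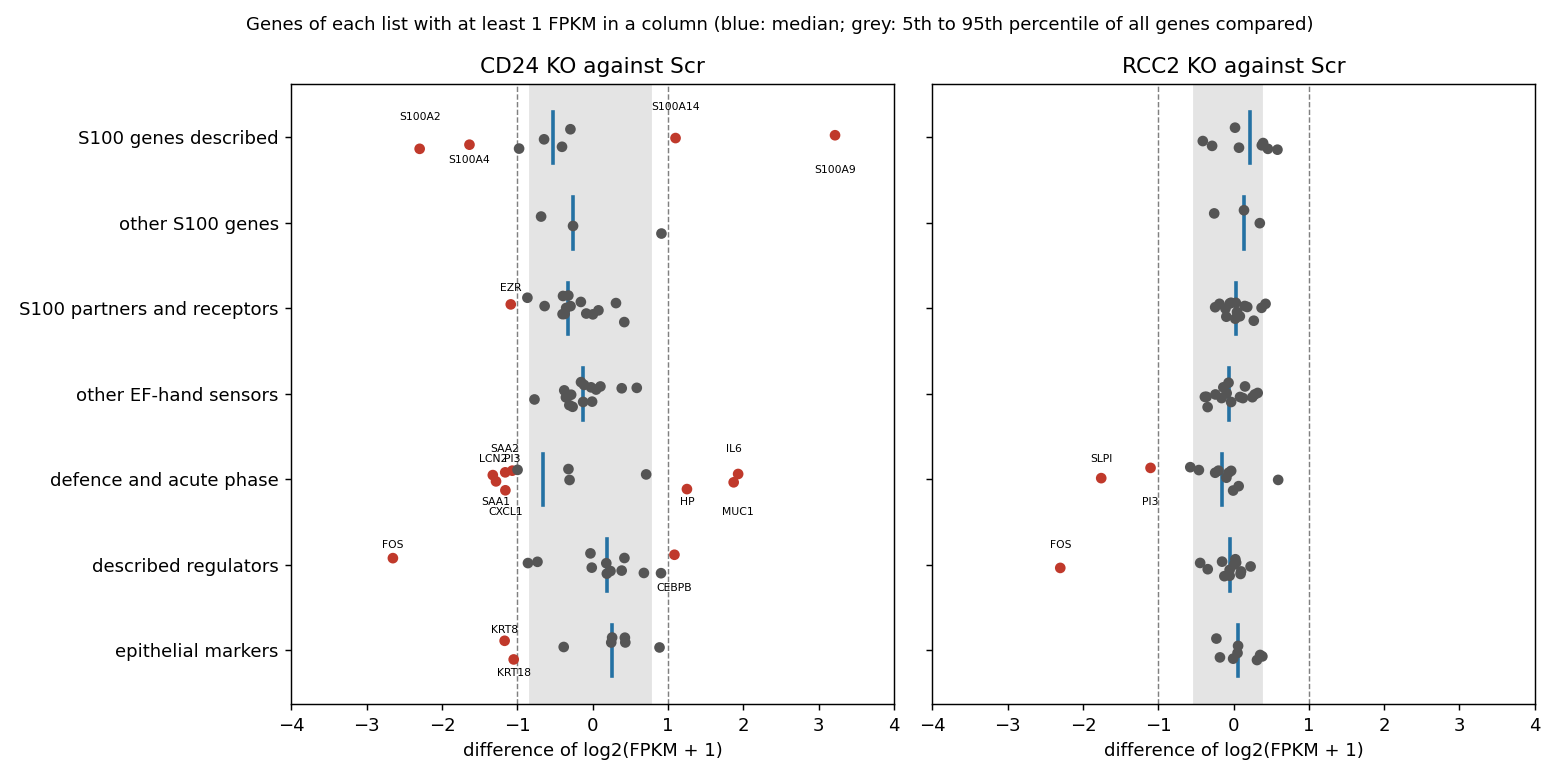
Difference of log2(FPKM + 1) against Scr in CD24 KO (left) and RCC2 KO (right) for listed genes with at least 1 FPKM in a column. Lists drawn are S100 genes described, other S100 genes, partners and receptors, other EF-hand genes, defence and acute-phase genes, regulators and epithelial markers. The S100-fused, squamous and other cell type lists are not drawn. Each point is a gene, red where at least 2-fold different and then named, blue bars are list medians, and the grey band is the 5th to 95th percentile of all genes compared. The S100 genes described, which were chosen with their values known, spread from -2.30 to 3.22 in CD24 KO. None of the 15 other EF-hand genes was called, where 5.69% (CD24 KO) and 1.20% (RCC2 KO) of all genes compared were. The spreads of these lists are therefore not a like comparison.

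S100A9 and S100A12 are also myeloid genes, so markers of other cell types were read beside them. Of 14 myeloid markers, 12 were under 1 FPKM in every column, and PTPRC, TYROBP, FCGR3A and FPR1 were listed at 0 in all of them. The summed myeloid markers were at 39.9 FPKM in Scr, against 84.0 in CD24 KO and 40.2 in RCC2 KO, of which CD68, a lysosomal protein that epithelial cells also express, made up 37.1, 81.5 and 38.4 FPKM. CD68 shares its position with MPDU1, SOX15 and LOC100996842. Of 8 B cell markers, 1 was not found in the table, CD79A was at 0.793, 37.0 and 1.44 FPKM, CD22 was at 0.700, 2.05 and 0.599 FPKM, and MS4A1 was listed at 0 in every column. All 10 fibroblast and endothelial markers were under 1 FPKM in every column. Of 20 squamous markers, 9 were listed at 0 in every column, KRT5, KRT14 and SPRR1B among them. The 6 squamous markers compared had a median log2 difference of 0.64 in CD24 KO, with 4 higher and 2 lower, and -0.01 in RCC2 KO. KRT4 was called higher in both, at 1.82 and 1.19. In CD24 KO IVL was at 0.94, SBSN at 0.82 and KRT10 at 0.46, while DSC3 was at -0.87 and CNFN at -0.39. CNFN, the most abundant of the 6, was at 20.7 FPKM in Scr, against 15.5 in CD24 KO and 13.3 in RCC2 KO. The summed FPKM of the 20 squamous markers was 34.1 in Scr, 33.1 in CD24 KO and 26.8 in RCC2 KO. TP63, a basal epithelial factor, was at most 0.0092 FPKM. The part of these markers in the S100 values was not tested.

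The genes closest to S100A9 in their pair of log2 differences against Scr were SFRP1, C1S, MFAP2, AKR1C1 and MFAP5, at Euclidean distances of 0.52 to 0.77 among 9376 genes that were above 0 in every column and reached 5 FPKM in one. SFRP1, a secreted Wnt antagonist, was at 0.329 FPKM in Scr and 10.6 FPKM in CD24 KO, and C1S, a complement protease, at 1.74 and 17.8 FPKM. Closest to S100A2, the member with the largest difference in RCC2 KO, were CSF2, EDN2, SRSF2, HNRNPA1P33 and WDR77, at distances of 0.09 to 0.29. CSF2 (GM-CSF) was at 5.95 FPKM in Scr, against 0.328 in CD24 KO and 9.20 in RCC2 KO. Each pattern rests on 3 values per gene.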

How the data were processed

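RNA of DU145 cells was sequenced in 6 libraries, 2 per condition. The authors deposited 1 table of FPKM, with 1 value per gene and condition. The submitters' processing notes name HISAT, StringTie, Cufflinks and GATK without role or version, and the genome build is not given in the sources used here. The kit is a TruSeq RNA kit per the labels and a stranded one in the published methods. Short S100 transcripts make FPKM sensitive to how effective length was estimated.

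The members and lists were chosen with earlier results of these data known. Lists were written from general knowledge. FPKM values were used as deposited and compared as log2(FPKM + 1) for 12822 genes with at least 1 FPKM in any column, and a 2-fold difference was called. With 1 value per condition, no limma fit or other test could be run. Named genes were all members, other S100 genes of at least 1 FPKM, list genes past 2-fold, the highest gene of a list without one, and the 5 nearest patterns. Partners given as ratios, markers named at 0 and genes inside the cluster were chosen after their values were seen. Start positions were written from 1. For the build check, 24864 symbols found once in GENCODE 29 were compared, of which 3932 overlapped. Depth is unknown. Values of a few marker genes are not reported here. The code that makes the calls was run on values simulated from the Scr column, with large known changes put in. That run checks the code and says nothing of a difference between conditions. Python 3.11.15, NumPy 2.4.6, pandas 2.3.3 and matplotlib 3.10.9 were used.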

Additional observations from a re-analysis of the deposited data

How the results depend on the processing

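With 1 value per condition, nothing here separates conditions from differences between libraries, clones or cultures. No paired analysis was possible because the table holds no value for each library, and for the same reason no replicate could be left out. The number of members at least 2-fold different kept within 1.5 times its value under every alternative except the 1.5-fold minimum, which gave 8 genes for RCC2 KO against CD24 KO. The median of the members in CD24 KO against Scr was -0.31 with columns rescaled to the same sum and -0.26 with quantile normalization. Against Scr, the RCC2 KO median was 0.13 with no filter, over 10 genes. With quantile normalization S100A6 in CD24 KO was at 0.016 and S100A11 in RCC2 KO at -0.045, each with the opposite sign. S100A14 was under the 2-fold minimum with a pseudocount of 5, at 0.50 in CD24 KO against Scr and -0.48 in RCC2 KO against CD24 KO, and in the latter also with quantile normalization, at -0.86. The other 187 of 192 values for single members kept their direction and their side of the minimum, among them all values of S100A9, S100A2 and S100A4, under pseudocounts of 0.1 and 5, both filters, the median centring, the rescaled columns, quantile normalization and a rescaling without 40 genes of at least 1000 FPKM, which was chosen after seeing the data. In CD24 KO against Scr, S100A9 ran from 2.54 to 3.45 and S100A2 from -2.54 to -1.66. Genes called over the whole table in CD24 KO against Scr numbered 1262 with a pseudocount of 0.1, 278 with a pseudocount of 5 and 2709 with the 1.5-fold minimum, against 730. For RCC2 KO against Scr they were 443, 54 and 676, with 67 under at least 1 FPKM in every column, against 154, and for RCC2 KO against CD24 KO 1850, 380 and 3580, against 1066.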

Other observations

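Epithelial defence and acute-phase genes, which are often described together with S100A8 and S100A9, did not share one direction in the libraries labelled CD24 KO. Of 18 such genes, 12 were compared, of which 3 were at least 2-fold higher and 5 lower than in Scr, where 2.67% and 3.03% of all genes compared were. MUC1, a membrane mucin, was at 77.7 FPKM in Scr, against 299 in CD24 KO and 118 in RCC2 KO, and IL6 was at 11.9, 46.3 and 11.6 FPKM. HP (haptoglobin) was at 0.0425 FPKM in Scr and 1.48 FPKM in CD24 KO. LCN2 (lipocalin 2), an antimicrobial protein that binds siderophores, was at 117, 46.1 and 116 FPKM, and SAA1 at 50.2, 20.04 and 46.9 FPKM. SAA2, CXCL1 and PI3 were also at least 2-fold lower in CD24 KO, with log2 differences of -1.16, -1.16 and -1.07. SLPI, a protease inhibitor, was at 80.5 FPKM in Scr, against 132 in CD24 KO and 23.1 in RCC2 KO, the lowest log2 difference of the list in RCC2 KO at -1.76. PI3 was called lower there as well, at -1.10. These were 2 of the 12 genes, where 0.796% of all genes compared were called lower in RCC2 KO.

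Of 18 factors described as regulators of S100 genes, 13 were compared, of which 1 was called higher and 1 lower in CD24 KO, where 5.69% of all genes were called, and 1 lower in RCC2 KO, where 1.20% were. CEBPB, a C/EBP factor described at the promoters of S100A8 and S100A9, was at 6.33 FPKM in Scr, against 14.6 in CD24 KO and 6.85 in RCC2 KO, a log2 difference of 1.09 in CD24 KO. FOS, an AP-1 subunit, was at 27.8 FPKM in Scr, against 3.58 in CD24 KO and 4.84 in RCC2 KO. Among the squamous genes, KRT4 was at 0.0791 FPKM in Scr, against 2.81 in CD24 KO and 1.46 in RCC2 KO. Of 8 epithelial markers, the keratins KRT8 and KRT18 were at least 2-fold lower in CD24 KO, with log2 differences of -1.17 and -1.05. They share 1 position in the table, and 3.03% of all genes were called lower there. The list as a whole did not share this direction, with 5 markers higher and 3 lower in CD24 KO and a median of 0.25. CDH1 (E-cadherin) was at 27.9 FPKM in Scr, against 52.6 in CD24 KO and 23.7 in RCC2 KO. None of these differences has a replicate check.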
